A study of Saccharomyces cerevisiae with 4 samples.

Results

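The pheromone response pathway of budding yeast (Saccharomyces cerevisiae) was followed gene by gene, from the G protein coupled to the pheromone receptor to the transcription factor at its end. The 10 members were GPA1, STE4, STE18, STE20, STE5, STE11, STE7, FUS3, KSS1 and STE12, of 5656 genes that had a probe set of their own on the array. They were taken by gene symbol, and all 10 were found, with 12 probe sets in all. A probe set is a group of short oligonucleotides that together read 1 transcript. FUS3 had several probe sets and the other 9 members had 1 each. The H3 mutant had 8 lysines of histone H3 (4, 9, 14, 18, 23, 27, 36 and 79) exchanged for glycine and was set against a wild-type strain, with 2 one-colour arrays of each (n = 2 each). The wild-type titles name the same arrays as controls of a further H3 mutant, which was not analysed here. Both were grown to mid-log phase in rich glucose medium (YPD), and total RNA was labelled with biotin. The labels give neither mating type, ploidy nor other genotype, so the H3 change and any further difference between the strains cannot be told apart. They also do not say whether replicates were separate cultures, so the spread behind each p-value may be technical.

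In haploid yeast cells the pathway senses the pheromone of the opposite mating type. The receptor releases the beta and gamma subunits of a G protein from its alpha subunit, and these recruit a scaffold protein on which a chain of kinases passes the signal to a MAP kinase, which then activates a transcription factor. Some steps serve mating alone, and their genes are known to be repressed in a/alpha diploid cells by a pair of mating-type proteins. Other steps are also used for filamentous growth or the response to osmotic stress and are made in haploid and diploid cells alike. The first kind, called haploid-specific here, comprised GPA1, STE4, STE18, STE5 and FUS3. The second, called generally expressed, comprised STE20, STE11, STE7, KSS1 and STE12. STE12 can be placed in either class, because it serves filamentous growth in diploids but is also known to be less abundant there.

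All 5 haploid-specific members fell in the H3 mutant, with log2 fold changes between -2.63 and -0.97 and a median of -1.83. Of the 5 generally expressed members, STE12 fell, STE11 rose and 3 (STE20, STE7 and KSS1) did not pass the test, with a median of -0.21. The ranges of the classes did not overlap, although STE5 and STE12 lay next to each other. Over all 6504 probe sets paired with 1 gene, 10.2% were called lower and 12.3% higher, 22.5% in all, and the median was -0.013. A probe set was called at an adjusted p under 0.05 (limma, Benjamini-Hochberg over all 6504). Fold changes are mutant minus wild type on log2(signal + 16), which understates the change of dim genes.

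The arrays resembled each other closely within a strain. Log2 signals correlated at r = 0.991 between the mutant arrays and 0.993 between the wild-type arrays, against 0.960 to 0.965 between strains. These correlations are across probe sets, which are not independent replicates. Signals were in arbitrary units with nearly equal trimmed means on all arrays, and 4 control probe sets for mouse transcripts gave signals of at most 4.0. The number of arrays limits the precision, with standard errors of the log2 fold changes at a median of 0.107. The 9 probe sets for transcripts spiked in at hybridization had geometric mean signals of 174 and 201 in the mutant, against 138 and 141 in wild type. Scaling to them moved the median of all probe sets to -0.31 and left 10.1% of the calls on the higher side, where the deposited scaling gave 54.6%. Changes are therefore relative to the deposited scaling.

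**Figure D1:**
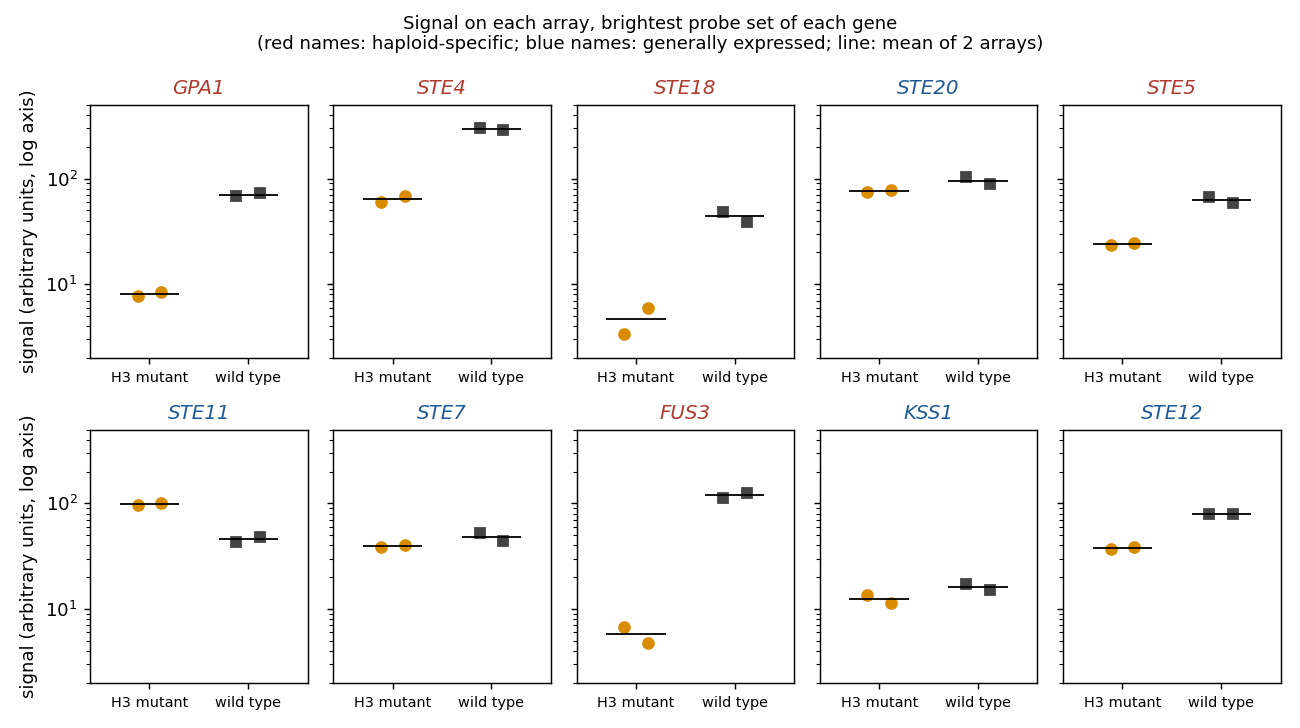
Signal of the brightest probe set of each member on each array, in pathway order, with a logarithmic vertical axis in arbitrary units; circles are the H3 mutant, squares wild type, and lines the means of 2 arrays. GPA1, STE18 and FUS3 lay at 8.5 or less on both mutant arrays, while STE11 was the member with higher mutant signals.

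The G protein was lower at all of its subunits. GPA1 encodes the alpha subunit, which binds the receptor and holds the other subunits inactive. Its signal was 7.7 and 8.5 on the mutant arrays, against 67.7 and 72.2 on the wild-type arrays. The mutant values were near the floor and far below both wild-type values, a log2 fold change of -1.83 ± 0.104 (SE) with an adjusted p of 0.000104. STE4 encodes the beta subunit, which carries the signal onward. Its signal was 59.5 and 68.6 in the mutant, against 299.7 and 285.1 in wild type. STE4 was reduced without nearing the floor, so its change of -1.95 ± 0.0996 (SE, adjusted p = 7.31e-05) depends less on how low signals are treated than that of GPA1. STE18 encodes the gamma subunit, which anchors STE4's product to the membrane through a lipid tail. Its signal was 3.4 and 5.9 in the mutant, against 48.7 and 38.8 in wild type. The groups did not overlap, and the change was -1.53 ± 0.121 (SE, adjusted p = 0.000378). With a smaller offset of 1 in place of 16, the log2 fold changes were -2.96 for GPA1, -2.18 for STE4 and -3.01 for STE18, so the order among these subunits rests on the offset.

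STE20 and STE5 lie between the G protein and the kinase chain. STE20 encodes a kinase of the PAK family that starts the chain in mating and in filamentous growth. Its signal was 74.1 and 78.1 in the mutant, against 102.4 and 89.1 in wild type. The mutant arrays lay below both wild-type arrays, but the change of -0.28 (95% interval -0.53 to -0.02) had an adjusted p of 0.105 and did not pass. STE5 encodes the scaffold that holds the kinases together and gives the pathway its specificity for mating. Its signal was 23.3 and 24.4 in the mutant, against 66.6 and 58.1 in wild type. STE5 fell by 0.97 on the log2 scale (SE 0.112, adjusted p = 0.00187), or 1.96-fold with the offset, which made it the least reduced haploid-specific member. Among the members, STE5 and STE7 lie in a run of 885 consecutively numbered probe sets. Its probe sets disagreed more between the mutant arrays than others did (SDs of the replicate difference 0.339 and 0.177 on the log2 scale). The brightest probe sets of STE14, RAM1 and MFA1, named below, lie in it too, and their mutant replicates differed by 0.01, 0.31 and 0.04. The mutant replicates of STE5 and STE7 themselves differed by 0.04 and 0.06.

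Of the kinases above the MAP kinases on the scaffold, STE11 rose and STE7 did not pass. STE11 encodes the MAP kinase kinase kinase, which is shared by mating, filamentous growth and a branch of the osmotic stress response. Its signal was 96.8 and 101.2 in the mutant, against 43.4 and 48.2 in wild type. Both mutant arrays lay above both wild-type arrays, 1.86-fold with the offset, a log2 fold change of 0.90 ± 0.105 (SE) with an adjusted p of 0.00200. STE11 ranked as number 154 from the top among the 6504 probe sets. STE7 encodes the MAP kinase kinase that activates both FUS3's and KSS1's products. Its signal was 38.4 and 40.6 in the mutant, against 52.9 and 43.7 in wild type. The groups did not overlap, but the gap was smaller than the distance between the wild-type arrays, and the change of -0.21 (95% interval -0.49 to 0.07) did not pass (adjusted p = 0.239).

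The MAP kinases are a paralogous pair with separate roles, FUS3 mainly in mating and KSS1 mainly in filamentous growth. The brightest FUS3 probe set gave 6.8 and 4.8 in the mutant, against 113.0 and 124.6 in wild type. Its mutant signal was close to the level of the mouse control probe sets, and its change of -2.63 ± 0.114 (SE, adjusted p = 3.10e-05) was number 6 from the bottom among all probe sets at the offset used. With an offset of 64 it gave -1.39 and STE4 -1.48, so which of them fell furthest rests on the offset. A further FUS3 probe set gave 4.1 and 4.9 in the mutant, against 69.0 and 55.2 in wild type, a change of -1.92 ± 0.119 (SE, adjusted p = 0.000139). The remaining FUS3 probe set was near the floor on all arrays, at 2.4 and 1.1 in the mutant and 4.2 and 3.8 in wild type, and did not pass (adjusted p = 0.116). The FUS3 probe sets with signal above the floor in wild type thus both fell, and the dim one gives no measure of size.

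KSS1 was dim in both strains, with 13.7 and 11.4 in the mutant, against 17.1 and 15.1 in wild type. The groups did not overlap, but the change of -0.17 (95% interval -0.39 to 0.05) did not pass (adjusted p = 0.232). At this signal, under the 25th percentile of probe sets with 1 gene (25.1), the offset compresses any change. With an offset of 1 KSS1 gave -0.34 and FUS3 -4.15.

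STE12, the transcription factor that both MAP kinases control, fell. Its signal was 36.7 and 38.6 in the mutant, against 79.7 and 79.4 in wild type. Replicates within each strain were nearly equal, and the change was -0.83 ± 0.103 (SE, adjusted p = 0.00245). STE12 lay 0.14 above STE5 and 0.56 below STE20 on the log2 scale, against combined standard errors of 0.152 and 0.149. By its change it stood nearer to the haploid-specific STE5 than to any other generally expressed member. With STE12 counted as haploid-specific, 6 of 6 such members fell, and of the 4 others 1 rose and 3 did not pass.

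**Figure D2:**
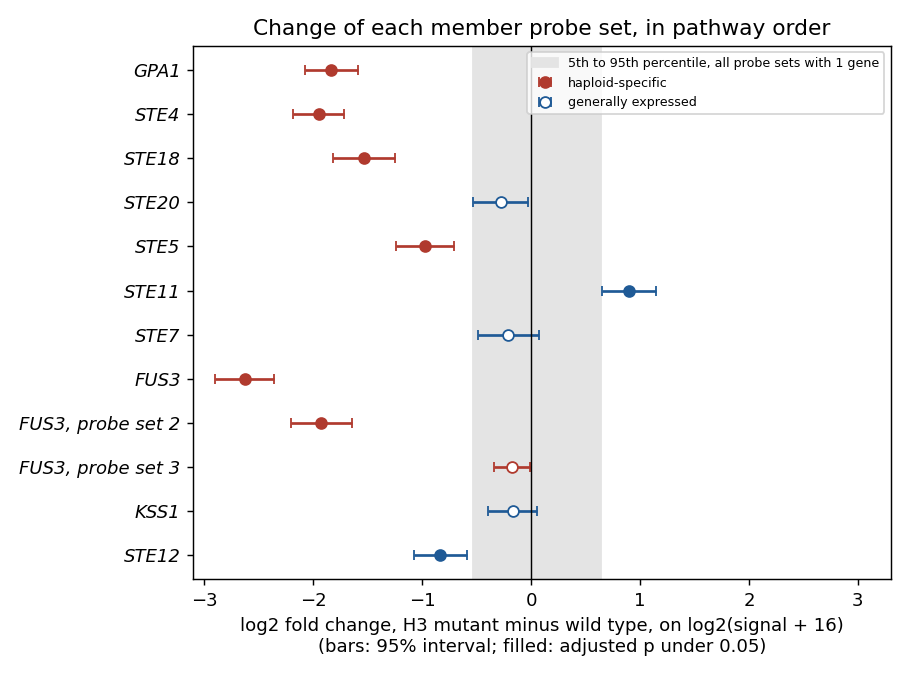
Log2 fold change of each of the 12 member probe sets, H3 mutant minus wild type, in pathway order from top to bottom; bars are 95% intervals, filled points passed an adjusted p under 0.05, and the grey band spans the 5th to 95th percentile of all probe sets with 1 gene (-0.53 to 0.64). Of the haploid-specific members, drawn in red, only the dimmest FUS3 probe set lies inside the band, and STE11 lies above it.

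From most to least reduced the order was FUS3, STE4, GPA1, STE18, STE5, STE12, STE20, STE7, KSS1 and STE11. FUS3 was set off from STE4 by 0.68, STE18 from STE5 by 0.56, STE12 from STE20 by 0.56 and KSS1 from STE11 by 1.07, each over 2 combined standard errors at the offset of 16. The other neighbours in the order (STE4 and GPA1, GPA1 and STE18, STE5 and STE12, STE20 and STE7, STE7 and KSS1) differed by 0.04 to 0.30, within 2 combined standard errors. The order rests in part on the offset. With an offset of 1 the most reduced members were FUS3, STE18, GPA1 and STE4, and KSS1 came before STE20 and STE7. With an offset of 64 STE4 came before FUS3, and STE18 and STE5 gave -0.65 and -0.52 with standard errors of 0.0545 and 0.0617, no longer 2 combined standard errors apart. For 9 members both mutant arrays lay below both wild-type arrays and for 1, STE11, above them, where 32.7% of all probe sets lay wholly below and 31.9% wholly above, 64.6% in all.

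**Figure D3:**
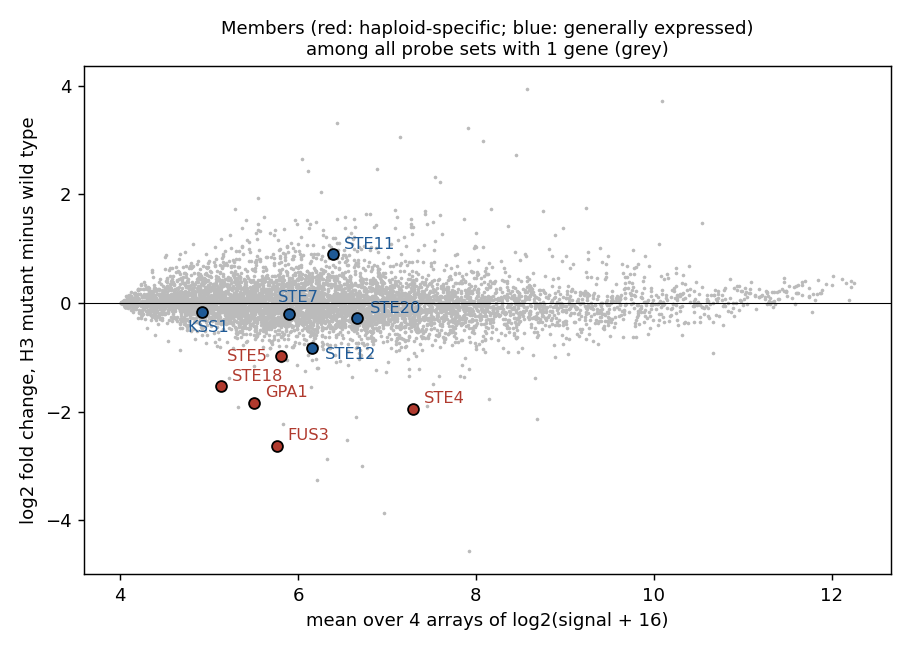
Mean log2(signal + 16) over the 4 arrays against the log2 fold change, H3 mutant minus wild type, for 6504 probe sets with 1 gene (grey) and the brightest probe set of each member (coloured). STE4 is the brightest haploid-specific member, and KSS1 lies at the dim end of the horizontal axis.

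Scaling to the hybridization controls changed the calls of the generally expressed kinases. Under it STE20, STE7 and KSS1 gave -0.63, -0.52 and -0.37 and were called lower (adjusted p = 0.00290, 0.0129 and 0.0190), while relative to the shifted median of all probe sets they stood at -0.32, -0.20 and -0.05. STE11 still rose under that scaling, by 0.56 (adjusted p = 0.00745). The 5 haploid-specific members were called lower under it as well.

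The pheromone receptors above the G protein are sex-specific. STE2, the receptor for alpha factor made in a cells, had a signal of 8.7 and 7.3 in the mutant, against 202.1 and 228.6 in wild type. It fell by 3.27 on the log2 scale (SE 0.113, adjusted p = 1.26e-05), further than any member. STE3, the receptor for a factor made in alpha cells, was near the floor in both strains, at 8.4 and 12.1 in the mutant and 11.1 and 12 in wild type, and did not pass (adjusted p = 0.623).

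Markers of a cells fell alongside the haploid-specific members, while most alpha-cell markers did not pass. All 6 a-cell markers (MFA1, MFA2, STE2, STE6, BAR1 and AGA2) fell, where 10.2% of all probe sets were called lower. The median log2 fold change of these markers was -3.13. Their summed signal was 113 and 109 in the mutant, against 2272 and 2553 in wild type. Of the 4 alpha-cell markers SAG1 rose, by 1.11 on the log2 scale, and MF(ALPHA)1, MF(ALPHA)2 and STE3 did not pass and had a signal of at most 21.8 on all arrays. The summed signal of the alpha markers was 156 and 152 in the mutant, against 90.3 and 85.1 in wild type. SAG1 accounted for all of that difference, with 115.8 and 106.7 in the mutant, against 47.5 and 38.6 in wild type. Among sporulation markers, IME2 and SPR3 rose by 0.38 and 0.35 on the log2 scale from signals near the floor (limma adjusted p = 0.0221 and 0.0234). IME1 and NDT80 did not pass. Over all probe sets 12.3% were called higher, the share to read the alpha-cell and sporulation counts against. Whether the sporulation calls hold under the other processing settings was not examined. The part of mating type or ploidy in the fall of the haploid-specific members was not tested.

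Probe sets of the mating-type cassettes did not pass the test. Of the 7 listed cassette genes only HMRA1 had probe sets paired with it alone, and MATA1, which encodes a repressor of haploid-specific genes, carries the same coding sequence. The brightest gave 73.2 and 73.5 in the mutant, against 90.3 and 97.8 in wild type (log2 fold change -0.30, adjusted p = 0.0691). The dimmer HMRA1 probe sets gave -0.17 and 0.05 (limma adjusted p = 0.234 and 0.761). The brighter probe set shared by MATALPHA2, HMLALPHA2 and HMRA2 gave 141.9 and 182.4 in the mutant, against 71.4 and 115.7 in wild type. Its change of 0.72 had an adjusted p of 0.0867 over all probe sets of the table, and the dimmer one gave -0.28 (adjusted p = 0.371). Probe sets shared by MATALPHA1 and HMLALPHA1 gave 0.41 and 0.12 (adjusted p = 0.160 and 0.191). Copies at MAT and at the silent cassettes cannot be told apart with these probe sets.

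The 6 other haploid-specific genes examined all fell, with a median of -1.19. They include HO, the mating-type switching endonuclease, at 10.2 and 10.5 in the mutant, against 114.9 and 99.5 in wild type, and RME1, a repressor of meiosis, at 29.2 and 35.7 in the mutant, against 195.9 and 187.8 in wild type. AMN1, a regulator of mitotic exit, fell by 1.34 on the log2 scale. AXL1, NEJ1 and RDH54 fell by 0.56, 0.70 and 1.03. Together with the members so classed, 11 genes were measured and each was lower, where 10.2% of all probe sets were called lower. These lists were, however, chosen with earlier results of these data known.

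**Figure D4:**
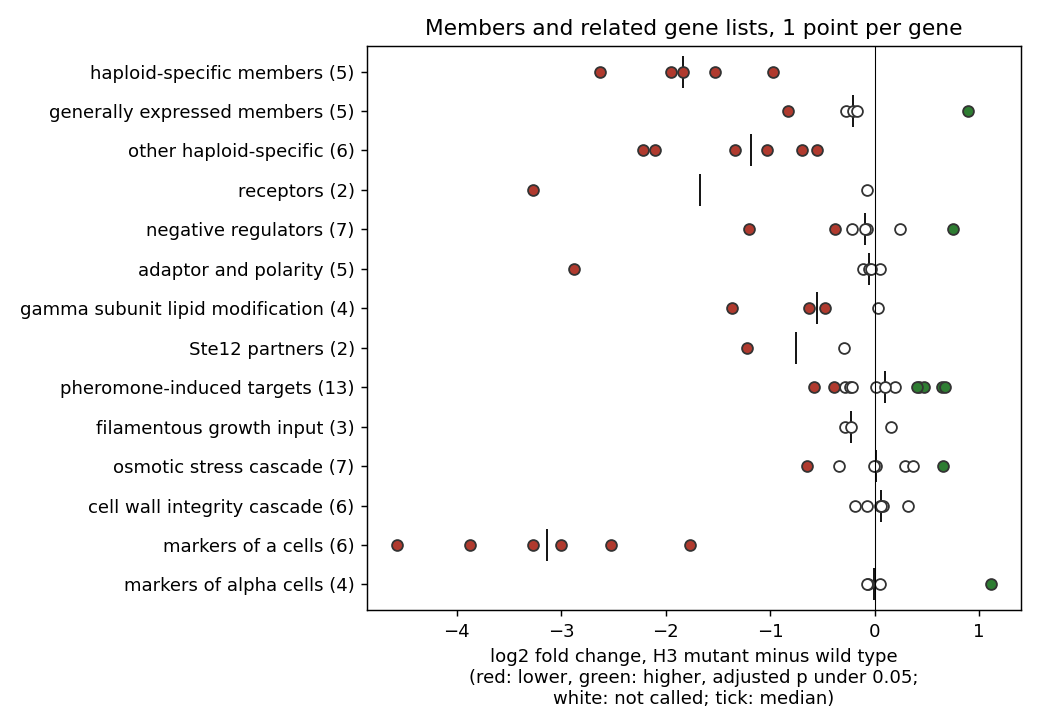
Log2 fold change of each gene, H3 mutant minus wild type, for the members and for lists of related genes; red points were called lower, green higher and white not called, ticks are medians, and the number of genes is in parentheses. Both haploid-specific rows and the a-cell markers lie wholly to the left of 0, while the osmotic stress and cell wall cascades lie around it.

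Regulators of the pathway were mixed. Of 7 negative regulators 2 fell, 1 rose and 4 did not pass, with a median of -0.09. The shares over all probe sets were 10.2% lower and 12.3% higher. SST2, which speeds the shut-off of GPA1's product, had a signal of 37.8 and 28.3 in the mutant, against 94.3 and 98.4 in wild type, and fell by 1.20 on the log2 scale (SE 0.127, adjusted p = 0.00130). DIG1, which holds STE12's product inactive, fell by 0.38 (adjusted p = 0.0246), which did not pass with any 1 of the 4 arrays removed (0.0821 to 0.112). PTP2, a phosphatase of MAP kinases, had 107.5 and 100.4 in the mutant, against 59.5 and 51.6 in wild type, and rose by 0.75 (SE 0.109, adjusted p = 0.00428). Its next brightest probe set, with 49.8 and 46.1 in the mutant against 33.3 and 30.1 in wild type, also rose, by 0.42 (limma adjusted p = 0.0326). The dimmer ones gave -0.02 to 0.18 and did not pass.

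Among 5 adaptor and polarity genes, which act at the cell cortex, 1 fell and 4 did not pass, where 10.2% of all probe sets fell. The 1 was FAR1, which binds the beta and gamma subunits and arrests the cell cycle, with 14.2 and 12.8 in the mutant, against 216.4 and 186.9 in wild type (-2.88 ± 0.115, SE). STE50, CDC42, CDC24 and BEM1 gave -0.04, 0.05, -0.05 and -0.11. The median of the group was -0.05.

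Of 4 genes for the lipid modification of the gamma subunit 3 fell and 1 did not pass, where 10.2% of all probe sets fell. Their median was -0.55. STE14, the methyltransferase that finishes the modified end of STE18's product and of a factor, had a signal of 44.2 and 44.7 in the mutant, against 132.8 and 147.7 in wild type (-1.37 ± 0.103, SE, adjusted p = 0.000320). RAM2 and RAM1, the subunits of farnesyltransferase, fell by 0.48 and 0.62. RAM2 did not pass with any 1 array removed (adjusted p of 0.0657 to 0.0784), and RAM1 did not pass without mutant replicate 1 (0.102), wild-type replicate 1 (0.129) or wild-type replicate 2 (0.0824). RCE1, a protease of the same route, gave 0.04.

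Genes downstream of the pathway moved in both directions. TEC1, the partner of STE12's product at filamentous growth genes, had 55.4 and 67.0 in the mutant, against 168.2 and 160.0 in wild type, and fell by 1.23 (SE 0.110, adjusted p = 0.000658). MCM1, its partner at mating genes, gave -0.29 and did not pass (adjusted p = 0.101). Of 13 pheromone-induced targets of STE12's product 2 fell, 4 rose and 7 did not pass, with a median of 0.10. By comparison, 10.2% of all probe sets were called lower and 12.3% higher. FIG1, a membrane protein of mating cells, had 18.7 and 18.5 in the mutant, against 6.6 and 5.8 in wild type (0.64 ± 0.0830, SE, adjusted p = 0.00278). FIG2, the brightest of those that rose, had 71.8 and 59.6 in the mutant, against 37.3 and 33.0 in wild type. It rose by 0.67 (SE 0.122, limma adjusted p = 0.00967), and whether its call holds under the other processing settings was not examined. PRM2 rose as well, by 0.48, a call lost without wild-type replicate 1 (adjusted p = 0.0538) or wild-type replicate 2 (0.0742). ASG7, which is made in a cells, fell to 0.9 and 1.4 in the mutant, against 10.7 and 8.8 in wild type. FUS1, named here after its value was seen because it is a common reporter of the pathway, gave 6.2 and 6.3 in the mutant, against 15.6 and 10.8 in wild type (-0.39, adjusted p = 0.0330), which did not pass with any 1 array removed (0.0542 to 0.143) or with all probe sets of the table fitted (0.0609). Most of these targets were dim in both strains, in cells that were not reported to have been given pheromone.

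Pathways that share kinases or regulators with the mating cascade were listed as well. Of 3 membrane proteins that feed STE20 and STE11 in filamentous growth, none was called by limma and 1 had an unadjusted p under 0.05. That was MSB2, which gave -0.29 (adjusted p = 0.0566). Over all 6504 probe sets 2477 had an unadjusted p under 0.05 by limma, the share to read such counts against here and below. MSB2 was called lower with median centring (adjusted p = 0.0499), with the filter at the 25th percentile (0.0447) and under scaling to the hybridization controls (0.00109). Of 7 genes of the osmotic stress cascade 1 fell and 1 rose, where 10.2% of all probe sets were called lower and 12.3% higher. HOG1, the MAP kinase of that cascade, had 256.3 and 271.9 in the mutant, against 419.2 and 428.5 in wild type, and fell by 0.65 (SE 0.0855, adjusted p = 0.00290). SSK22, a MAP kinase kinase kinase like STE11, had 87.2 and 94.5 in the mutant, against 53.5 and 50.1 in wild type, and rose by 0.66 (SE 0.104, adjusted p = 0.00614). The SSK22 call was lost under scaling to the hybridization controls (adjusted p = 0.113) and without mutant replicate 2 (0.0551), wild-type replicate 1 (0.0502) or wild-type replicate 2 (0.0554). Of 6 genes of the cell wall integrity cascade none was called by limma and 1 had an unadjusted p under 0.05, MKK2, which gave 0.32 (adjusted p = 0.105).

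Outside the members, the profiles most like the mean of the haploid-specific members over the 4 arrays were those of AGA2, RME1, PHO84, STE14, HO and SNG1. Likeness was the Euclidean distance between log2(signal + 16) values centred on each gene's mean, and it was 0.0425 for AGA2 and 0.335 to 0.464 for the others. AGA2, a subunit of a-agglutinin, had 8.3 and 9.0 in the mutant, against 67.9 and 67.9 in wild type. PHO84, a phosphate transporter gene, fell by 2.14 on the log2 scale, and SNG1 fell by 1.35. With 2 arrays in each of 2 strains the distance mainly measures the size of the fall.

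**Figure D5:**
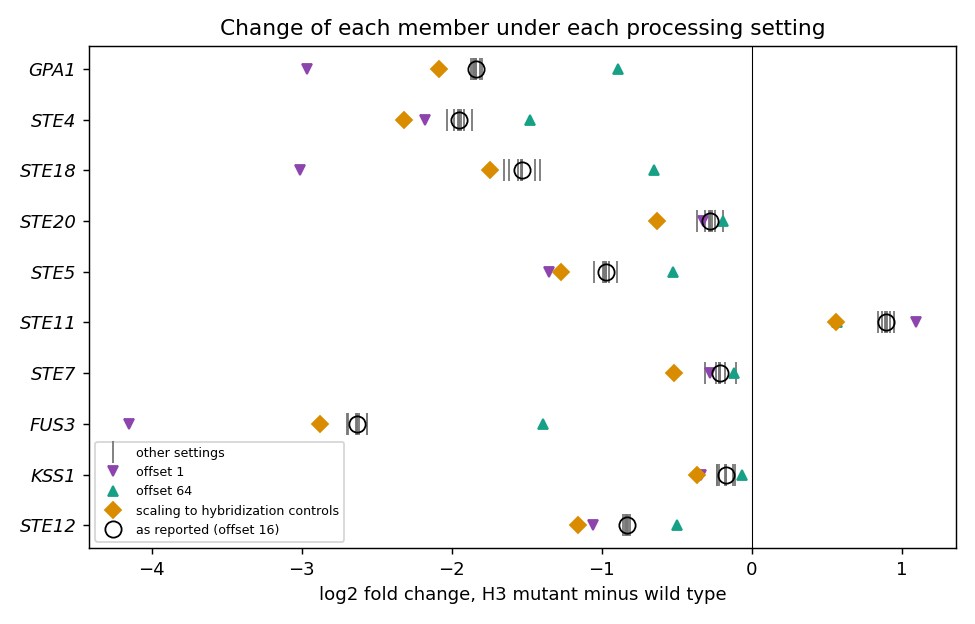
Log2 fold change of each member, H3 mutant minus wild type, as reported (open circles) and under each other processing setting (symbols and grey ticks). The offset moves the haploid-specific members most, scaling to the hybridization controls moves all members to the left, and no member crosses 0.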

How the data were processed

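The authors deposited intensity values on a linear scale. The submitters' processing notes name MAS5, without its version or the target it was scaled to. About 20 µg of total RNA per sample was labelled, per the labels' protocols. The array has 9335 probe sets. The platform annotation gives 1 gene for 6504, several genes for 328 and no listed gene for 2503. Values of log2(signal + 16) for the 6504 were fitted in R 4.3.3 by limma 3.58.1, using lmFit and then eBayes (trend over mean level, 2 residual and 5.14 prior degrees of freedom) and no filter on signal, so that every member was tested. At an unadjusted p under 0.05, 2477 passed. For genes with several probe sets the brightest was used in lists. Detection calls were not used here.

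The members, classes and lists were chosen with earlier results of these data known, so none is independent evidence. Named genes were the members, both receptors, the marker genes, up to 3 called genes of each list by moderated statistic (the gene with the smallest p where none was called), and the 6 most alike profiles. AXL1, NEJ1, RDH54, STE50, CDC42, CDC24, BEM1, RCE1, MCM1, FIG2 and the neighbouring genes were named after their values were seen. Protein and promoter sequences were not analysed here. Alternatives were other offsets, scalings, filters, priors and thresholds, a replicate block and each array left out. A fit without the run of 885 probe sets was chosen after seeing the data. Plots used Python 3.11.15 and matplotlib 3.10.9.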

Additional observations from a re-analysis of the deposited data

How the results depend on the processing

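FUS3, STE4, GPA1, STE18, STE5 and STE12 stayed lower and STE11 higher, past the threshold, under every alternative that measured them; a filter at the 25th percentile dropped STE18 and KSS1, and one at the median kept STE4, STE20 and STE11 alone. The haploid-specific median was -2.96 with an offset of 1, -0.89 with 64, -2.08 under scaling to the hybridization controls, -1.89 with the filter at the 25th percentile and also without the run of 885 probe sets, which holds STE5 and STE7, -1.95 with the filter at the median, and -1.68 with STE12 included. The generally expressed median was -0.32, -0.12 and -0.52 under the first 3 of these, turned to 0.31 with the filter at the median, and lay between -0.31 and -0.12 with 1 array left out. The members called lower were 1 haploid-specific and 0 generally expressed with the filter at the median, and 4 generally expressed under scaling to the controls. With STE12 moved, 0 generally expressed members were lower. Of all 6504 probe sets 665 were lower and 800 higher, or 2863 and 323 under scaling to the controls. Of the 55 other list genes 17 were lower and 6 higher, against 30 and 4 under that scaling, 11 and 3 with the filter at the median, and 12 to 14 and 2 to 6 with 1 array left out (2 higher without either wild-type array). MF(ALPHA)2 gave -0.011 with quantile normalization and -0.14 under that scaling, and STE3 lay between -0.17 and 0.029 with 1 array left out (0.029 without mutant replicate 1). Over all probe sets, 665 lower and 800 higher calls became 2863 and 323 under that scaling, 417 and 608 with all probe sets of the table fitted, 525 and 439 with the filter at the median, 204 and 381 at a threshold of 0.01, and 111 to 255 and 276 to 402 with 1 array left out, where the lone array is assumed to vary like the other group. With the replicate number as a block the members' calls did not change, and 18 and 8 list genes were called. Deviations of same-numbered arrays correlated at 0.104 over probe sets, and the labels do not say that numbers pair the arrays. Signals under about 25.1 limit the size of any change.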

Other observations

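The genes beside the members on their chromosomes were mostly not called. Taking the nearest protein-coding gene with a probe set of its own on each side of each member, in the order of the R64 reference, 2 of 20 fell, 0 rose and 18 did not pass, where 10.2% of all probe sets were called lower. PEP1 and ACH1, beside FUS3, gave log2 changes of -0.09 and 0.10, and MGM1 and SAS5, beside STE4, gave -0.05 and -0.29. YLR361C-A and NMD4, beside STE11, gave -0.09 and -0.09. TIM10, a mitochondrial import gene next to GPA1, had 235.9 and 305.0 in the mutant, against 442.1 and 406.9 in wild type, and fell by 0.63 (adjusted p = 0.0144), a call lost without mutant replicate 1 (0.0730), wild-type replicate 1 (0.125) or wild-type replicate 2 (0.0849). BUD9, a bud-site gene next to KSS1, fell by 0.43 (adjusted p = 0.0254), which did not pass with any 1 array removed (0.0738 to 0.117).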
